A study of Mus musculus with 14 samples.

Results

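A set of 10 genes used as readouts of thyroid hormone action in the brain were examined in whole fetal mouse brain, where the tables list 41934 genes. They were taken by symbol: Hr, Nrgn, Mgp, Camk4, Rasd2, Flywch2, Kcnj10, Nefh, Nefm and Mme. Each symbol had a single row, and none of the 10 genes had a mean below 10 normalized counts at either age. RNA of whole brains of C57BL/6J fetuses, all labeled male, was sequenced at embryonic ages E13.5 (4 Dio3+/+ and 2 Dio3-/- fetuses) and E18.5 (3 Dio3+/+ and 5 Dio3-/- fetuses). Each library came from 1 fetus of matings between heterozygotes. Dio3-/- fetuses carry an inactivating mutation of Dio3 in every cell, and no agent was given to any group. The values used here are the authors' means over all libraries of an age, so each gene has 1 value per age, with both genotypes in it. No value per library was used, no spread between fetuses can be given, and no test was made.

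T3 (triiodothyronine), the active thyroid hormone, enters brain cells through membrane transporters and binds the nuclear receptors encoded by Thra and Thrb. These receptors sit on DNA together with retinoid X receptors, recruit corepressors without hormone and coactivators with it, and so set the transcription of their target genes. DIO2 makes T3 from its precursor in the brain, and DIO3 inactivates it. The 10 genes serve varied cells: NRGN, CAMK4 and RASD2 act in calcium, calmodulin and dopamine signaling of neurons, NEFM and NEFH build the axonal cytoskeleton, KCNJ10 is a potassium channel of astrocytes, HR is a corepressor of nuclear receptors, MGP is an extracellular protein that restrains mineral deposition, and MME (neprilysin) cleaves peptides outside the cell.

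Of these genes, 4 were among the primers of the study's quantitative PCR, and their primers are shown because they fix which part of each transcript such an assay reads, whereas the sequencing counted the exons of the whole gene. All 8 oligonucleotides were placed by exact match on GENCODE M21 transcripts of GRCm38, and they are written 5′ to 3′.
Hr forward: agcactgtgtggcatgtgtt
Hr reverse: aaccctgcatccaagtagca
Nrgn forward: cacccagcatcgtacaaacc
Nrgn reverse: ggaaactcgcctggattttgg
Mgp forward: agcccaaaagagagtccagga
Mgp reverse: tgcctgaagtagcggttgtag
Mme forward: ccctggacttgacctcaatc
Mme reverse: ggcagagttctgcaaagtcc
The Hr primers lie in coding sequence of exons 16 (chr14:70568030-70568049) and 17 (chr14:70571426-70571445) of a transcript with 19 exons, and bound a product of 131 bases present in 3 of 5 transcripts. The Nrgn forward primer lies in the 5′ UTR in exon 1 (chr9:37552605-37552624) and the reverse primer in coding sequence of exon 2 (chr9:37546078-37546098), with a product of 185 bases in 1 of 2 transcripts. The Mgp forward primer crosses the junction of exons 3 and 4 (between 136872780 and 136873178 on chromosome 6) and the reverse primer lies in exon 4 (chr6:136872666-136872686). Both are in coding sequence, with a product of 135 bases in 1 of 2 transcripts. The Mme primers lie in coding sequence of exons 21 (chr3:63368523-63368542) and 23 (chr3:63380241-63380260) of 23, with a product of 157 bases in 3 of 8 transcripts.

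At E18.5, 7 of the 10 genes stood more than 2-fold above their E13.5 level and 0 stood more than 2-fold below it. Over all 19461 genes with a mean of at least 10 at either age, 14.2% were more than 2-fold higher (2761 genes) and 6.42% more than 2-fold lower (1250 genes). The 7 genes were Camk4, Nrgn, Mgp, Rasd2, Hr, Nefh and Kcnj10, from 7.15-fold for Camk4 down to 3.65-fold for Kcnj10. Flywch2, Nefm and Mme lay within 2-fold, at 1.05, 0.776 and 0.775 times their E13.5 level. The median log2 ratio over the 10 genes was 2.19, where that of all genes with a mean of at least 10 at both ages was set to 0. These ratios compare tables that the authors normalized separately. As the tables stand, that median was -0.28, and it was subtracted from every log2 ratio. The E13.5 means hold 33.3% Dio3-/- libraries and the E18.5 means 62.5%, so age, genotype and the normalization of each table cannot be told apart in these ratios. The libraries were sequenced in 2 batches, and the batch of each library is not known here. Any batch difference left after the authors' adjustment therefore cannot be told apart from age either. In whole brain, more cells of a type and more RNA per cell cannot be told apart either.

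**Figure D1:**
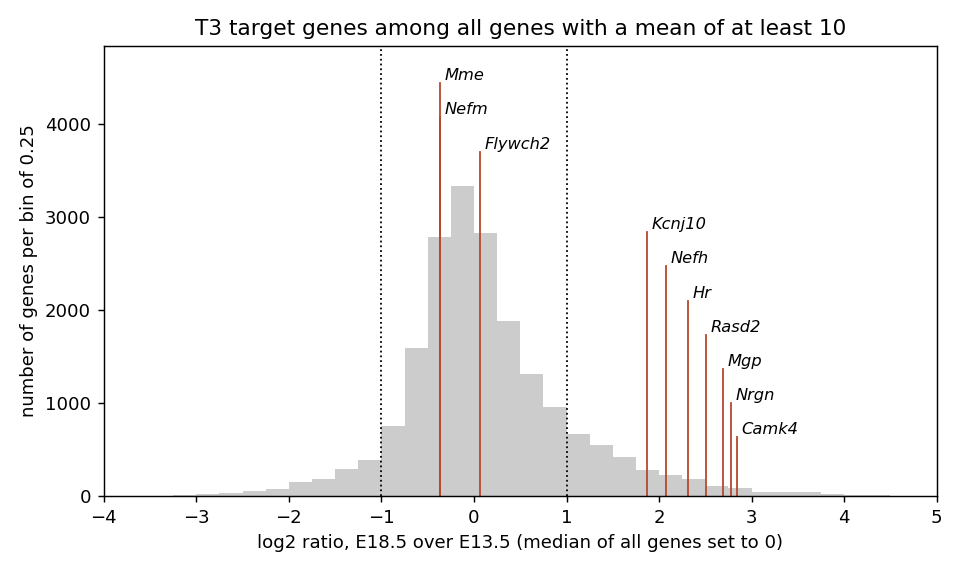
Distribution of the log2 ratio of the E18.5 mean to the E13.5 mean (x axis, median of all genes set to 0) over genes whose mean reached 10 normalized counts at either age, as the number of genes per bin (grey bars, y axis). Red lines mark the T3 target genes, whose heights carry no value, and dotted lines mark 2-fold. The 7 genes from Kcnj10 to Camk4 lie to the right of the 2-fold line, and Mme, Nefm and Flywch2 lie near 0.

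Levels of different genes were compared per kilobase of exon, since a longer transcript collects more reads. At E13.5 the order ran from Nefm (928 normalized counts per kilobase) through Flywch2 (202), Nrgn (185), Camk4 (72.3), Kcnj10 (70.5), Mme (60.2), Nefh (35.3), Mgp (24.5) and Rasd2 (14.4) to Hr (12.8). At E18.5 it ran from Nrgn (1048) through Nefm (593), Camk4 (427), Kcnj10 (212), Flywch2 (174), Mgp (134), Nefh (123), Rasd2 (68.2) and Hr (52.9) to Mme (38.4). The span from lowest to highest was 72.4-fold at E13.5 and 27.3-fold at E18.5. The genes that stood low at E13.5, other than Mme, were thus nearer to the top ones at E18.5, and Mme passed from sixth to the last place. With no spread between libraries, it cannot be said which neighbours in either order differ. The order also depends on the gene model. On the longest transcript alone, Mme (86.4) stood above Kcnj10 (70.5) at E13.5, and Mgp (223) stood above Kcnj10 (212) at E18.5.

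**Figure D2:**
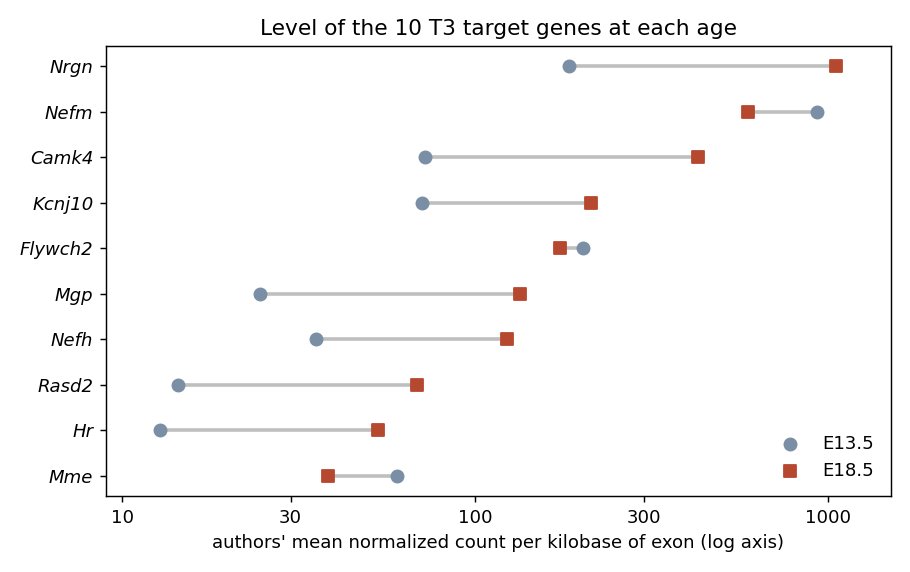
Authors' mean normalized count per kilobase of exon (x axis, log scale) of each T3 target gene (y axis) at E13.5 (circles) and E18.5 (squares). Points are means over both genotypes, without error, and no scaling between the ages was applied. Nrgn had the highest level at E18.5 (1048) and Nefm at E13.5 (928), and the squares of Nefm, Flywch2 and Mme lie to the left of their circles.

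Hr encodes the Hairless protein, which binds thyroid hormone receptors and represses transcription, and its own gene is a direct T3 target in brain. It occupies chr14:70552212-70573548 on the plus strand (GRCm38). Its mean normalized count was 88.6 at E13.5 and 366 at E18.5, a log2 ratio of 2.31. Among genes detected at each age, it moved from percentile 59.0 to percentile 72.0 of the mean normalized count. None of the 6 other corepressor genes listed was more than 2-fold apart between the ages. Ncor1, the most abundant of these per kilobase, had a log2 ratio of 0.16, and Gps2, the lowest, one of -0.38. Within each table, Hr stood at 1.35% of the Ncor1 level per kilobase at E13.5 and at 6.06% at E18.5. Such a ratio within a table needs no scaling between the ages, though age, any remaining batch difference and the share of Dio3-/- libraries still cannot be told apart in it. The pairs given in this way were chosen after the values had been seen, and a change in a pair does not show which of its genes differed.

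Nrgn encodes neurogranin, a protein of dendrites that binds calmodulin when calcium is low and releases it when calcium rises. It lies at chr9:37544492-37552904 on the minus strand. Its mean normalized count was 268 at E13.5 and 1523 at E18.5, a log2 ratio of 2.78, and it moved from percentile 66.8 to 87.9. Gap43, which encodes the calmodulin-binding counterpart of neurogranin in growing axons, had means of 8712 and 15107, a log2 ratio of 1.07. Per kilobase, Nrgn stood at 3.23% of Gap43 at E13.5 and at 10.6% at E18.5.

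Camk4 encodes a calmodulin-dependent kinase of the nucleus that phosphorylates the transcription factor CREB. Its mean normalized count was 236 at E13.5 and 1391 at E18.5. The log2 ratio of 2.84 was the highest of the 10 genes, and the percentile moved from 65.7 to 86.9. Camkk2, which encodes an activating kinase of CAMK4, had a log2 ratio of 0.64, and Camk4 stood at 39.7% of its level per kilobase at E13.5 and at 183% at E18.5. Creb1, the gene of the substrate, was the lowest of the list, with a log2 ratio of -0.23. Of the 16 listed genes of calmodulin and its kinases besides Nrgn and Camk4, 6 were more than 2-fold higher at E18.5 and 0 lower, with a median log2 ratio of 0.71. Calm3, one of the genes that encode calmodulin itself, had a log2 ratio of 0.59. Of the Camk4 exon bases, 2.21% overlap those of another gene on the opposite strand.

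Rasd2 encodes Rhes, a small GTPase of striatal neurons that acts on dopamine receptor signaling. It lies at chr8:75213944-75224113 on the plus strand. The gene had means of 45.7 at E13.5 and 217 at E18.5, a 5.67-fold higher level, and it moved from percentile 54.2 to 67.3. Its close relative Rasd1 had means of 25.5 and 35.4 (log2 ratio 0.74), so that Rasd2 stood at 90.9% of Rasd1 per kilobase at E13.5 and at 311% at E18.5. Of the 10 other genes of Ras and striatal signaling, 8 were more than 2-fold higher and 0 lower. Ppp1r1b, which encodes the dopamine-regulated phosphatase inhibitor DARPP-32, had the highest log2 ratio of these, 3.70. Gnal, which encodes the G protein alpha subunit coupled to dopamine receptors of the striatum, had one of 2.34, and Adcy5, the adenylyl cyclase gene, one of 0.85. Relative to Drd1, a dopamine receptor gene of striatal projection neurons, Rasd2 stood at 97.0% per kilobase at E13.5 and at 75.9% at E18.5. The striatal marker list moved with Rasd2: 8 of its 9 genes were more than 2-fold higher, the summed mean normalized count was 10575 at E13.5 and 17757 at E18.5, and none was at 0. The part of these cells in the Rasd2 value was not tested.

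Kcnj10 encodes the inward rectifier potassium channel Kir4.1, through which astrocytes take up potassium. It lies at chr1:172341210-172374085 on the plus strand. Kcnj10 had a mean normalized count of 381 at E13.5 and 1148 at E18.5, a log2 ratio of 1.87, and it moved from percentile 70.0 to 84.8. It had the highest level per kilobase of the 13 inward rectifier genes at E18.5. Of the other 12, 8 were more than 2-fold higher and 0 lower. Kcnj3, a neuronal G protein-gated channel gene, had a log2 ratio of 1.69, and Kcnj4, which was at a mean of 5.01 at E13.5, one of 4.13. The astrocyte markers moved with Kcnj10: 6 of 7 were more than 2-fold higher, their summed mean was 8893 at E13.5 and 18473 at E18.5, and none was at 0. Gfap, the intermediate filament gene of astrocytes, had means of 4.71 and 501. The E13.5 sum was carried by Slc1a3 (3840) and Gja1 (3407), so it does not show that astrocytes were present at that age. The list of the oligodendrocyte lineage moved the same way, with 6 of 8 genes more than 2-fold higher (3 with no scaling) and 0 lower. Per kilobase, Kcnj10 stood at 15.7% of the glutamate transporter gene Slc1a3 at E13.5 and at 24.2% at E18.5, but at 473% and 62.6% of the water channel gene Aqp4. The direction of the Kcnj10 share thus depends on the astrocyte gene it is set against, and the part of astrocytes in the Kcnj10 value was not tested.

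Nefm and Nefh encode the medium and heavy neurofilament subunits, which assemble with the light subunit (Nefl) and with alpha-internexin (Ina) into the filaments of axons. Nefm, at chr14:68082590-68124846 on the minus strand, had a mean normalized count of 5365 at E13.5 and 3429 at E18.5, a log2 ratio of -0.37. Nefh, at chr11:4938754-4948064 on the minus strand, had means of 141 and 491, a log2 ratio of 2.07. Nefh moved from percentile 62.1 to 75.2, while Nefm stood at percentiles 96.5 and 94.7. Of the 3 other intermediate filament genes of neurons, Nefl had a log2 ratio of 0.20, Ina one of -0.71 and Prph, the peripherin gene, one of -0.92. Nefh was therefore the single one of these 5 genes past 2-fold, except that Prph passed it downwards with no scaling between the tables and with scaling by the total per-length level. Within each table, Nefh stood at 3.81% of Nefm per kilobase at E13.5 and at 20.7% at E18.5, 5.45 times the earlier share. Nefm stood at 49.9% of Nefl at E13.5 and at 33.6% at E18.5. The size of these shares depends on the gene model. On its longest transcript alone, the Nefm level per kilobase was 1458 instead of 928 at E13.5 and 932 instead of 593 at E18.5. Of the Nefm exon bases, 1108 of 5782 (19.2%) overlap those of Nefl, which lies on the opposite strand, and reads were counted without regard to strand, so reads from this overlap cannot be assigned to either gene. Of the 5 motor neuron markers, cells with abundant neurofilaments, 4 had a mean of at least 10 and 0 of these were past 2-fold in either direction. The summed mean of these 4 was 1644 at E13.5 and 1072 at E18.5. Without Isl1 the listed motor neuron markers summed to 414 and 442.

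Mgp encodes matrix Gla protein, whose vitamin K-dependent gamma-carboxyglutamate residues bind calcium. It lies at chr6:136872435-136875823 on the minus strand. Its mean normalized count of 29.1 at E13.5 was the lowest of the 10 genes, and at E18.5 it was 159, a log2 ratio of 2.69. It moved from percentile 50.3 to 64.8. Of the 5 other Gla and vitamin K cycle genes with a mean of at least 10, Gas6, a Gla protein that activates receptor kinases, was more than 2-fold higher (log2 ratio 1.62) and 0 were lower. Ggcx, which encodes the carboxylase that makes Gla residues, had a log2 ratio of -0.31, and Vkorc1l1, a vitamin K epoxide reductase gene, one of 0.19. Mgp is made by cartilage, by vascular smooth muscle and by fibroblasts, and the markers of these cells did not share a direction. Of 6 cartilage markers with a mean of at least 10, 0 were more than 2-fold higher (1, Comp, when scaled by reference genes or with a pseudocount of 0.1) and 4 were lower, their summed mean (all 7) being 6330 at E13.5 and 596 at E18.5. Col2a1, the main cartilage collagen gene, had a log2 ratio of -3.47. Of 7 mural cell markers, 2 were more than 2-fold higher and 0 lower, with sums of 4997 and 6588, which rest on Rgs5, a pericyte gene: without it the sums were 3170 and 2452. Of 7 markers of leptomeningeal fibroblasts, 3 were higher and 1 was lower (2 and 2 with no scaling), with sums of 21673 and 17072, or 11011 and 12087 without the collagen gene Col1a1. Their range was wide, from a log2 ratio of -2.01 for Lum to 6.59 for Ptgds, the prostaglandin D synthase gene. None of these markers was at 0, and the part of these cells in the Mgp value was not tested. The Mgp level per kilobase depends on the gene model: on the longest transcript alone it was 40.7 at E13.5 and 223 at E18.5. That transcript has 2 exons and 715 bases, and is not the one with 4 exons on which the primers were placed.

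Mme encodes neprilysin, a membrane metalloprotease that degrades enkephalins and amyloid peptides. It lies at chr3:63241537-63386030 on the plus strand. Mean normalized counts of Mme were 694 at E13.5 and 443 at E18.5, a log2 ratio of -0.37, and it stood at percentiles 76.2 and 74.1. None of the 6 other peptidase genes listed was past 2-fold. Ece1, which encodes endothelin-converting enzyme, had a log2 ratio of -0.24, Ecel1 one of -0.30 and Ece2 one of 0.86. Mme stood at 21.5% of Ece1 per kilobase at E13.5 and at 19.6% at E18.5.

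Flywch2, at chr17:23776916-23786081 on the minus strand, is a small gene of the FLYWCH zinc finger family. Its mean normalized count was 201 at E13.5 and 173 at E18.5, a log2 ratio of 0.06, and it stood at percentiles 64.6 and 65.4. Its sign is not settled, since the log2 ratio was -0.22 with no scaling between the tables and -0.022 with scaling by the total per-length level. The related gene Flywch1 had means of 2332 and 1133, a log2 ratio of -0.76, and passed 2-fold downwards with no scaling. Per kilobase, Flywch2 stood at 37.0% of Flywch1 at E13.5 and at 65.4% at E18.5.

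**Figure D3:**
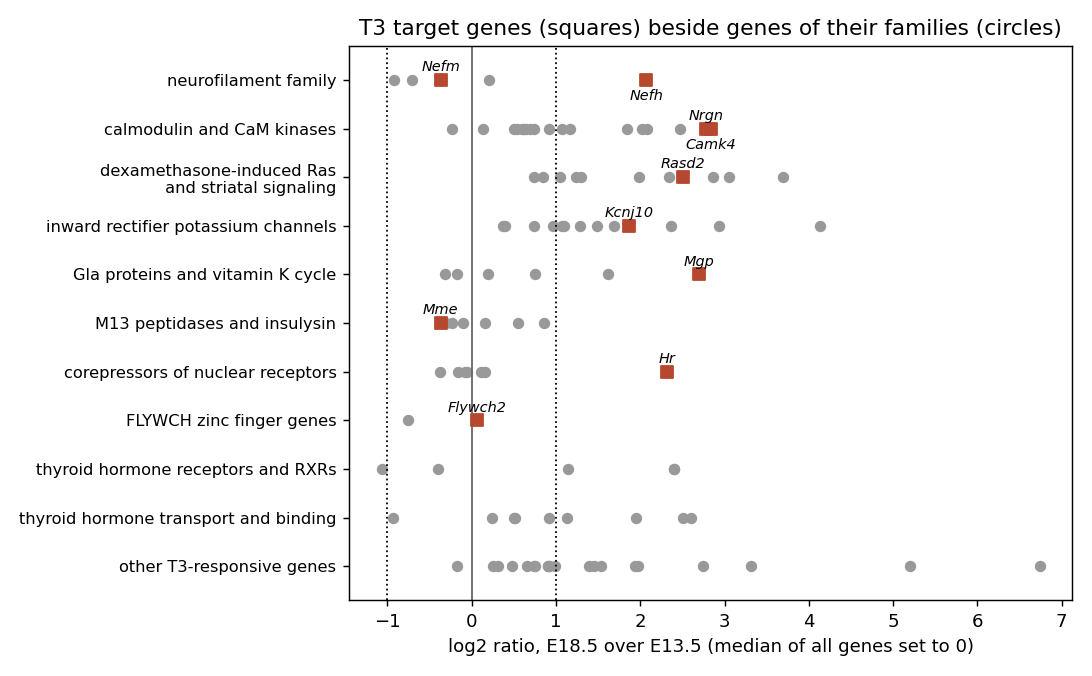
Log2 ratio of the E18.5 mean to the E13.5 mean (x axis, median of all genes set to 0) of the T3 target genes (red squares) and of the other listed genes whose mean reached 10 at either age (grey circles), by family or pathway (y axis). Dotted lines mark 2-fold. Hr lies apart from the 6 other corepressors, at 2.31, and Nefh from the 4 other filament genes, at 2.07, whereas Rasd2 and Kcnj10 lie within the range of their lists.

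The genes that control T3 in the same tables give the setting of these values. Dio2 had means of 14.4 at E13.5 and 375 at E18.5, a log2 ratio of 4.89, and Dio3, the gene mutated in Dio3-/- fetuses, had means of 99.0 and 129, a log2 ratio of 0.66, from which no direction in either genotype can be read, since the share of Dio3-/- libraries differs. A mean over both genotypes does not check the genotype labels. Thra had means of 8696 and 15798 (log2 ratio 1.14) and Thrb means of 59.8 and 262 (log2 ratio 2.39). Among the 5 receptor and retinoid X receptor genes, 3 were more than 2-fold higher, with Rxrg at a log2 ratio of 2.40. With no scaling 2 were, as Thra was then within 2-fold (log2 ratio 0.86). In the main setting 1 gene, Rxra, was more than 2-fold lower, at -1.07 (within 2-fold when scaled by reference genes). Of 9 genes of thyroid hormone transport and binding, 4 were more than 2-fold higher and 0 lower, but 1, Slc16a10, was lower with no scaling and with scaling by the total or the total per-length level. Slco1c1, a thyroxine transporter gene, had a log2 ratio of 2.60, Ttr, the gene of the carrier transthyretin, one of 1.95, and Slc16a10 one of -0.94. Of 20 other T3-responsive genes listed, 9 were more than 2-fold higher and 0 lower, with a median log2 ratio of 0.95. These ran from -0.17 for Cldn12 to 6.74 for Gfap, with Sema7a at 1.39 and Reln, which encodes the migration signal reelin, at 0.91. Some of these listed genes, such as Gfap and Cldn12, are ones for which the paper reports a genotype difference in this series. The same holds for Hr, Nrgn and Mgp among the 10 genes. The share of Dio3-/- libraries was larger at E18.5, so the count of 9 is no independent measure for the 7 of 10. The lists were also chosen with such values known.

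The remaining cell type markers differed between the ages in both directions. Of 7 neuron markers, 3 were more than 2-fold higher and 0 lower, with sums of 177879 at E13.5 and 197537 at E18.5. The markers include Snap25 (log2 ratio 1.68), Stmn2 (0.92) and Tubb3 (-0.04). Only 2 were higher with no scaling, with scaling by the total or the total per-length level, and with a pseudocount of 10. Of 7 neural progenitor markers, 0 were higher and 5 lower, with sums of 64234 and 17467 and a log2 ratio of -2.14 for Nes. Of 8 markers of the oligodendrocyte lineage, 6 were higher and 0 lower, with sums of 4270 and 8679 and a log2 ratio of 3.75 for Olig1; with no scaling, 3 were higher. The choroid plexus list had 3 of 4 genes higher and 0 lower, the microglia list 1 of 7 higher and 0 lower, and the endothelium list 1 of 6 higher and 0 lower, where the last 2 lists had 0 higher with no scaling. Red cell markers had 0 of 6 higher and 4 lower, and skeletal muscle markers 0 of 3 higher and 2 lower, with a median that rests on few low genes (-2.17, but -0.64 with a pseudocount of 10). The part of any of these cells in the values of the T3 target genes was not tested. Of the 8 reference genes, 1 was more than 2-fold higher (Hprt, within 2-fold with no scaling) and 1 lower (Polr2a, within 2-fold when scaled by these genes), and their median log2 ratio was -0.07. Xist, the RNA of the inactive X chromosome of females, had means of 5249 and 2568 beside 1269 and 1004 for the Y-linked gene Uty, although every label reads male. Means over libraries do not show which libraries this comes from. A difference in sex between the ages therefore cannot be told apart from age in the ratios either.

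**Figure D4:**
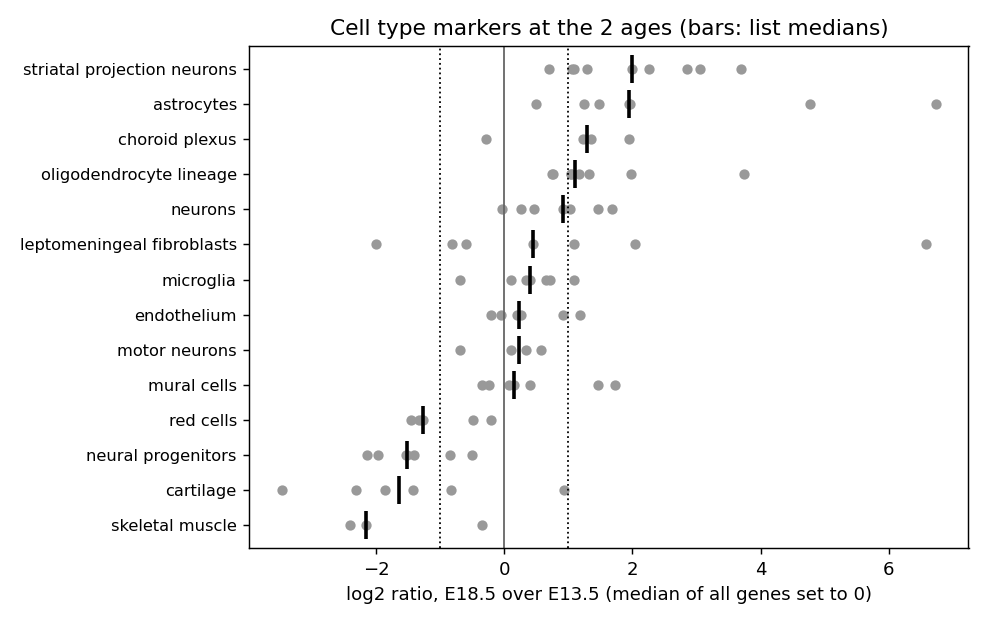
Log2 ratio of the E18.5 mean to the E13.5 mean (x axis, median of all genes set to 0) of cell type markers whose mean reached 10 at either age (grey circles), by list (y axis), with the list median as a black bar and 2-fold as dotted lines. Striatal and astrocyte lists lie to the right, with medians of 1.99 and 1.95, and progenitor, cartilage and muscle lists to the left, with medians of -1.52, -1.65 and -2.17.

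Promoters of 5 of the 10 genes (Nrgn, Rasd2, Flywch2, Kcnj10 and Mme, with 7 promoters in all) were matched in RefSeq on GRCm38.p6, and Hr, Mgp, Camk4, Nefh and Nefm were not. Thyroid hormone receptors bind the hexamer AGGTCA, in its classic arrangement as a direct repeat with 4 bases of any kind between the copies. In the 250 bases before the start, 0 of the 7 promoters held AGGTCA on either strand, where 14.0% of the 32851 promoters of the table did. The direct repeat was found in 5 promoters of the table and in none of the 7. That says only that these letters are not in these windows, and receptor sites can lie far from a start. The Mme windows, some of which overlap, belong to RefSeq starts 53674 to 54558 bases inside the gene as GENCODE places it. The Nrgn start lies 159 bases inside. The promoters of Rasd2 and Kcnj10 are shown, since both genes were more than 2-fold higher at E18.5 and since RefSeq and GENCODE place their start at the same base. Capitals mark the GC box GGGCGG or its reverse complement CCGCCC, a motif added after the sequences had been seen. Of the promoters shown, only that of Kcnj10 holds it.
Rasd2, chr8:75213694-75213943, plus strand: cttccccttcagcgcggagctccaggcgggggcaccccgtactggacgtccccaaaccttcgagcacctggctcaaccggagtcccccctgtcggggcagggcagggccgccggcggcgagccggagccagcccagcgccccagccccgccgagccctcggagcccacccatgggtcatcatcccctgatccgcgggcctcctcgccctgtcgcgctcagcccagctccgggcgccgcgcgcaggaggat
Kcnj10, chr1:172340960-172341209, plus strand: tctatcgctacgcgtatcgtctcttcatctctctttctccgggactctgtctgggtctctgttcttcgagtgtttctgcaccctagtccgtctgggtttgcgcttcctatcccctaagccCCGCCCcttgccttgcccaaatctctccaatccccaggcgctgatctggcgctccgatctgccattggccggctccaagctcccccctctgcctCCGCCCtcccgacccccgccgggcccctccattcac
The Kcnj10 promoter holds 2 GC boxes, which begin 36 and 130 bases before the start, and the Rasd2 promoter holds 0. The motif is present in 32.7% of all promoters of the table. It is also in the matched promoters of Nrgn (1 box), Flywch2 (2) and Mme (1 to 2 per window), so it is not particular to Kcnj10. The G and C content was 75.2% for Rasd2, above that of 96.1% of promoters, and 62.0% for Kcnj10, above that of 76.7%, with a median of 52.4%.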

How the data were processed

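RNA of whole brains from 14 fetuses labeled male was sequenced in 2 batches. Per the paper's methods, the authors trimmed reads with cutadapt 3.1, aligned them to GRCm38/mm10 with STAR 2.5.3a and GENCODE VM22, removed ribosomal and transfer RNA with bedtools 2.26.0, counted reads per gene with HTSeq without strand, adjusted the counts for batch with ComBat-seq and ran DESeq2 1.30.1 within each age. The authors' deposited signal used here is the mean over the libraries of an age of counts divided by size factors. The other columns hold the authors' comparison of Dio3-/- with Dio3+/+ (log2 fold change, standard error, statistic, p-value, adjusted p and a mark of significance). They were not used, so the genotypes are not compared here. Columns of per-sample values left unused numbered 0. The sums of the means were 28582629 at E13.5 and 24565726 at E18.5, with 31372 and 32498 genes above 0. Read depth is stated in the methods only as a range over the first batch, so the depth of a given library is unknown, and with no value per library no precision is given.

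Ratios were computed as log2 of the E18.5 mean plus 1 over the E13.5 mean plus 1, less the median of genes with means of at least 10 at both ages. The pseudocount shrinks the ratios of low genes. A difference was counted when it passed 2-fold, in genes with a mean of at least 10 at either age. Levels were divided by the merged exon length of GENCODE M21 (GRCm38), 1 release older than the authors' annotation, to which 41897 of 41934 genes were matched and 37 were not. Genes were compared with 13 lists of families and pathways and 14 lists of cell type markers. The 10 genes and all lists were chosen with earlier results of these data known. The genes named are the 10, the genes of T3 control, every neurofilament gene, and in each list those with the highest level per kilobase at E18.5 (up to 2), the largest rise and the largest fall. Rasd1, Drd1, Camkk2, Gja1, Aqp4, Xist and Uty were added after their values were seen. A few genes within the rule are left out of the text. Ratio code was tested on simulated data. Python 3.11.15, pandas 2.3.3 and numpy 2.4.6 were used. Primer sequences came from the study's supplementary list.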

Additional observations from a re-analysis of the deposited data

How the results depend on the processing

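The 7 genes above 2-fold stayed above it under all 7 other scalings and pseudocounts tried, the lowest value being 3.01-fold for Kcnj10. Under any of them, 0 of the 10 genes were more than 2-fold lower. A scaling moves every log2 ratio by the same amount, here by 0.28 at most. With log2 ratios of 1.87 or more, the 7 genes could not fall below 2-fold by scaling. None of these settings touches the share of Dio3-/- libraries, batch or the spread between fetuses. The log2 ratio of Flywch2 turned to -0.22 with no scaling between the tables and to -0.022 with scaling by the total per-length level. With no scaling, the median of all genes was -0.28, the number of genes more than 2-fold lower was 2152 instead of 1250 with 2027 instead of 2761 higher, so that 48.5% instead of 68.8% of genes past 2-fold were higher, and the list medians turned to -0.052 for endothelium, -0.13 for mural cells and -0.059 for motor neurons. The median of the skeletal muscle list, -2.17 over 3 genes, was -0.64 with a pseudocount of 10, -1.16 with no filter and -1.38 with a mean of at least 50. In an alternative chosen after seeing the data, the log2 ratio of the unscaled sums turned to -0.37 for mural cells without Rgs5, to 0.13 for fibroblasts without Col1a1 and to 0.093 for motor neurons without Isl1. With scaling by 8 reference genes, the median of the corepressors turned to 0.012. With no filter on low values, 4169 genes were more than 2-fold higher instead of 2761, as genes with fewer reads were then included. Of 20 percentiles, 18 moved by over 5 points when taken among protein-coding genes alone, where Hr stood at 35.2 and 53.5. Levels per kilobase by the longest transcript moved by over 1.5 times for Mgp and Nefm. No paired analysis was possible because the tables used here hold 1 mean per age and no value per library, and for the same reason no library could be left out in turn. Depth and the spread between fetuses limit every value in ways these means do not show.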
